A study of Homo sapiens with 3 samples.

Results

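The Wnt receptor complex of brain endothelium was described through 10 genes, taken by symbol from a gene table: the receptors FZD4 and FZD6, the co-receptors LRP5 and LRP6, the co-activators TSPAN12, ADGRA2 and RECK, the ligands WNT7A and WNT7B, and the signal transducer CTNNB1. All 10 symbols were found among the 20037 protein-coding genes of the table. The readout was chromatin accessibility in hCMEC/D3, an immortalized human brain microvascular endothelial cell line, grown to confluence on collagen without any other treatment. The series held 1 ATAC-seq library of these cells, replicate 2, and 2 RNA-seq libraries. ATAC-seq marks open chromatin by letting the Tn5 transposase cut and tag accessible DNA. The RNA tables list transcripts by identifiers that neither the files nor the gene tables link to genes, so expression of the 10 genes is not analysed here. With 1 accessibility library, 1 cell line and no second condition, the values have no replicate error and no test between groups was possible.

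In the canonical Wnt pathway, a Wnt ligand joins a frizzled receptor to LRP5 or LRP6, which halts the breakdown of beta-catenin and lets it act with TCF/LEF factors in the nucleus. In the developing brain, WNT7A and WNT7B made by neural cells signal to the endothelium through frizzled receptors with the help of RECK, a membrane-anchored glycoprotein, and ADGRA2, an adhesion receptor also called GPR124. In the retina and parts of the brain, the ligand Norrin acts through FZD4, LRP5 and the tetraspanin TSPAN12. Both routes are known for vessel growth and for setting up and keeping the blood-brain barrier.

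The list of accessible regions (peaks) held 106415 entries from 22188172 tags, called by the authors. Each carried a pileup, the number of extended tags stacked over the region as the caller gives it, and a fold, that pileup over a local background from the same library. In the caller's broad mode these are averages over the region, not values at its summit. Both are the authors' values for each peak. A peak was assigned to a gene when it overlapped the gene or the 10 kb on either side. It was placed at an end (within 1 kb of either gene end), otherwise inside the gene, otherwise in the flank. As a check of the cell label, 10 of 10 endothelial marker genes, among them PECAM1, CDH5 and CLDN5, had a peak at an end, against 72.8% of all protein-coding genes. So did 4 of 5 neuronal, 4 of 5 mural cell, 3 of 5 astrocyte and 3 of 5 microglia and macrophage markers, so an end peak alone did not single out endothelial genes. Nor were the endothelial end peaks strong. Their median pileup was 40.2 tags and their median fold 3.65, compared with 45.7 tags and 5.02 at all protein-coding genes with an end peak.

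RefSeq promoter sequences of the GRCh38.p14 assembly were at hand for 6 of the 10 genes: FZD4, LRP5, RECK, TSPAN12, CTNNB1 and WNT7A. Of these, 4 are printed because they show the range of accessibility at an annotated start, from a window wholly inside a peak to one with no peak. Each is the 250 bases before the start, 5′ to 3′, in lower case, with matches to GGGCGG or its reverse complement CCGCCC in capitals. That hexamer is the core of the box bound by SP and KLF factors. The windows are chr11:86955396-86955645 on the minus strand for FZD4, chr7:120858145-120858394 on the minus strand for TSPAN12, chr11:68312341-68312590 on the plus strand for LRP5 and chr3:13880072-13880321 on the minus strand for WNT7A.
FZD4: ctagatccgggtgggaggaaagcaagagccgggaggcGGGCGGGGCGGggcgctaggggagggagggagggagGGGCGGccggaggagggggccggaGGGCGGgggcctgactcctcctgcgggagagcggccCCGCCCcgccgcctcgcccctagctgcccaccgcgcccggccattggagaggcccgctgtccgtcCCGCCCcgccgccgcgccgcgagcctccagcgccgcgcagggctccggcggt
TSPAN12: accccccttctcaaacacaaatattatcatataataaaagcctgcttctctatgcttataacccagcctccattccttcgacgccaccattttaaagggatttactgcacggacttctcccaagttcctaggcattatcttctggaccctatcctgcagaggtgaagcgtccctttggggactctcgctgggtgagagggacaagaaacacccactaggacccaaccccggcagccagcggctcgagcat
LRP5: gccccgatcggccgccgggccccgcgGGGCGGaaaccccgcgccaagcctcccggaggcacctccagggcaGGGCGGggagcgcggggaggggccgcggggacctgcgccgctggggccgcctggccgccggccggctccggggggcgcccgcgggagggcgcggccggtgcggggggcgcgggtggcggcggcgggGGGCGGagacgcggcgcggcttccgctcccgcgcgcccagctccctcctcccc
WNT7A: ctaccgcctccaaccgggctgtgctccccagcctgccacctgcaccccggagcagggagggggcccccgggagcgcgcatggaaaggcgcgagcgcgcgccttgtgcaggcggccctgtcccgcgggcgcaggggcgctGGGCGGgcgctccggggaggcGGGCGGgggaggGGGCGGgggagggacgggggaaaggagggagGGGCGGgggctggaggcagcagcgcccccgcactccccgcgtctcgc

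The FZD4 window was GC-rich, at 80.8% G and C with 33 CpG dinucleotides, and held 6 matches to the hexamer, of which the first pair share a base. All 250 of its bases lay in a peak. TSPAN12 had the window of lowest GC content among the 6, at 50.8% with 8 CpGs, held no match to any motif searched, and had 138 of its 250 bases in a peak. The LRP5 window, at 87.2% G and C with 43 CpGs and 3 matches, had only its last 27 bases in a peak. WNT7A had 80.4% G and C, 29 CpGs and 4 matches, close to FZD4 in composition, yet none of its bases lay in a peak. Among the promoters not printed, CTNNB1 (74.4% G and C, 34 CpGs) and RECK (63.6%, 12 CpGs) each held 3 matches and lay wholly in a peak.

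Of the 6 promoters, 5 had the annotated start itself inside a peak, with WNT7A the exception. The background was 65.4% of 15843 protein-coding genes with a promoter entry. In that background, promoters whose start lay in a peak had a median GC content of 65.6% and a median of 22 CpGs, compared with 52.4% and 4 for the others. WNT7A, with no peak at its start, thus had a base composition nearer to the first group, and TSPAN12, with a peak there, nearer to the second. In all, 8 motifs were searched on both strands. Beside the SP/KLF hexamer they were the TCF/LEF core, spelled CTTTGA, through which beta-catenin signals reach DNA, the ETS core, spelled CCGGAA, and the TATA box, spelled TATAAA. The E-box was searched as CACGTG, the AP-1 site as TGACTCA, the SOX core as ACAATG, and the palindromic NRF1 motif in its consensus form. No motif shares its letters with another in the list. The SP/KLF hexamer was found in 5 of the 6 promoters and in 56.0% of the protein-coding promoters, and 42.6% of all 35116 promoters of the same length. Among protein-coding promoters its share was 70.8% where the start lay in a peak and 28.1% where it did not. By number of matches, 19.7% of protein-coding promoters held 3 or more, 11.1% held 4 or more and 5.99% held 5 or more. The other 7 motifs had no match in the 6 windows. Their background shares ran from 1.48% for NRF1 to 19.3% for the ETS core in protein-coding genes, with 9.58% for the TCF/LEF core. A window without a match says only that these letters are not in it.

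Across the 10 loci 60 peaks were called, 10 at gene ends, 38 inside the genes and 12 in the flanks. Each of the 10 genes had exactly 1 end peak, at 1 of its 2 ends. Of all protein-coding genes, 57.4% had peaks at 1 end only, and 10.2% had no peak in the gene or its flanks. An end peak was present at 72.8% of all protein-coding genes (95% Wilson interval 72.2% to 73.5%), and at 70.2% to 82.4% of the 500 protein-coding genes nearest in length to each member. None of the 10 had peaks at both ends, compared with 15.4% of all protein-coding genes. All 10 also had a peak inside the gene, away from the ends, compared with 55.9% of all protein-coding genes and, for those of similar length, from 32.8% at the length of FZD4 to 93.4% at that of LRP5 and LRP6. Flank peaks were found at 7 members. No share over all protein-coding genes was computed for flank peaks, so this count has no background. FZD6, LRP5 and TSPAN12 had none there.

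**Figure D1:**
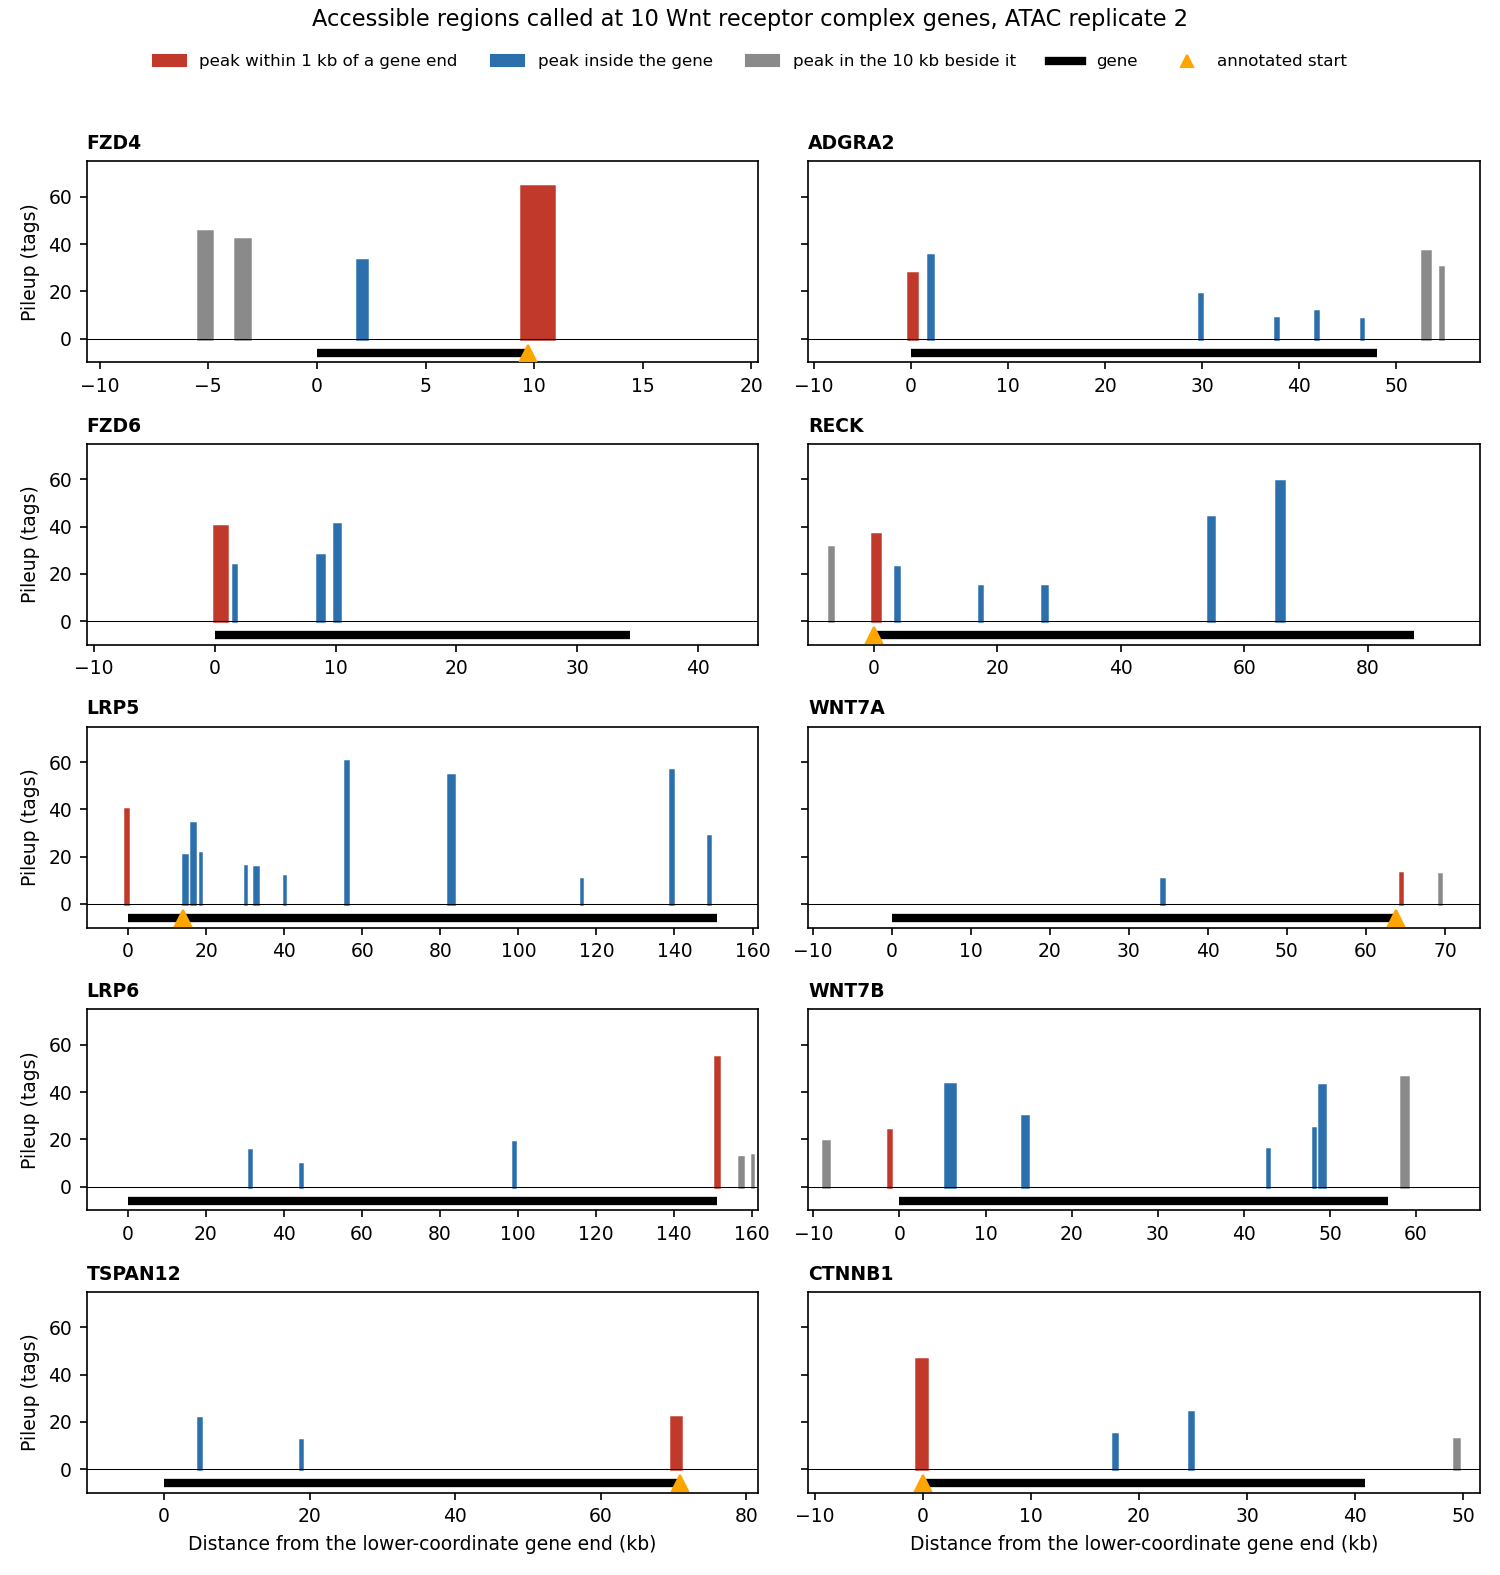
Peaks at each of the 10 genes in ATAC replicate 2. The x axis is the distance from the lower-coordinate gene end in kb, scaled for each gene, the y axis is the pileup in tags, bars are single peaks coloured by position, black bars are genes and triangles are annotated starts where a promoter entry was at hand. FZD4 carries the tallest end peak, at 64.6 tags, LRP5 the most peaks, 12, and all 3 WNT7A peaks stay under 14 tags.

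The end peaks of the receptor genes differed in height. FZD4, the frizzled that serves both Wnt and Norrin signals in endothelium, had the highest of the 10, at 64.6 tags over 1502 bp on chromosome 11 from 86955083 to 86956584, with a fold of 4.03. It covered the annotated start and an end of the neighbouring noncoding gene FZD4-DT. Among genes of similar length with an end peak, 80.6% had a lower pileup, but only 28.5% had a lower fold and 55.6% a lower −log10 q, so its high standing was in pileup. FZD6, a frizzled best known for planar cell polarity, had an end peak of 40.5 tags and fold 4.70 on chromosome 8 from 103298428 to 103299514, and 31.6% of genes of similar length had a lower one. That peak also lay at an end of the uncharacterized gene LOC105369147. Both genes thus had an accessible end, that of FZD4 higher in pileup and that of FZD6 higher in fold.

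Beyond its end peak, FZD4 had a peak inside the gene at 33.1 tags and 2 peaks 3085 and 4821 bp outside its other end, at 42.2 and 45.7 tags. Their folds were 3.483, 3.285 and 3.707. With all 4 peaks, 65.8% of genes of similar length had fewer than FZD4. At a fold of at least 4 it kept 1 peak, and 22% had fewer. At a −log10 q of 5 or more it kept 4, and 81.8% had fewer. All 4 stood on a local background of 8.79 to 15.3 tags, the highest of which was that of the end peak. For FZD6, 3 peaks lay inside the gene, all in its lower-coordinate portion, at 23.8, 27.9 and 41.2 tags. The last of these, at a fold of 6.68, was slightly higher than the end peak and lay at an end of the small nucleolar RNA gene SNORD173.

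The co-receptors LRP5 and LRP6 are near-identical in length here, 150864 and 151020 bp, and differed in how their peaks were spread. LRP5 had 12 peaks, 11 of them inside the gene, and LRP6 had 7, of which 3 were inside and 3 in the flank. Genes of this length had a median of 8 peaks, with 71.4% having fewer than LRP5 and 39.8% fewer than LRP6. Many of the LRP5 peaks were weak: it kept 6 at a −log10 q of 5 or more and 5 at a fold of at least 4, when 47.8% and 40.4% of genes of similar length had fewer, and LRP6 kept 4 in both. The peaks covered 8523 bp at LRP5 and 3293 bp at LRP6. LRP6 had its highest peak at the gene end, at 54.9 tags and fold 6.20 on chromosome 12 from 12266633 to 12267546, while its 6 other peaks stayed between 9.75 and 19.1 tags.

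At LRP5 the pattern was the opposite, with its strongest peaks inside the gene. The highest, at 60.6 tags and fold 7.68, lay on chromosome 11 from 68354059 to 68354854, and its pileup was above that of 93.9% of all peaks in the list. Next were a peak of 56.7 tags and fold 7.40 from 68437145 to 68438041 and a peak of 54.5 tags and fold 4.34 from 68380301 to 68381978. Its end peak, at 40.3 tags and fold 6.39, lay at the outermost end of the gene as annotated, 14124 bp from the start in the promoter table. The peak that held this start, whose upstream bases are printed above, had 20.8 tags and a fold of 2.21, and only 0.862% of all peaks in the list had a lower fold. Of the inside peaks of LRP5, 3, the peak at this start included, also lay at ends of LOC124900302 or LOC124902698. The local background was 8.86 tags at that peak, compared with 5.46 at the end peak. The peak at the gene's outer end thus had a higher pileup and fold than the peak at its promoter table start. Both are region averages from 1 library, and the difference was not tested.

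Among the co-activators, TSPAN12, which helps FZD4 respond to Norrin, had 3 peaks over 71016 bp, fewer than 66.4% of genes of its length. Its end peak covered the annotated start on chromosome 7 from 120856987 to 120858282, with 22.1 tags and a fold of 5.15, and 15.5% of genes of similar length had a lower pileup there but 50.8% a lower fold. The peak also lay at an end of LOC124901733. Its 2 inside peaks had 21.7 and 12.5 tags on the lowest local background that the caller allows, 2.37 tags. ADGRA2 had 8 peaks, and 83.6% of genes of its length had fewer. At a fold of at least 4 it kept 4, and 65.4% had fewer. Its end peak was low, at 27.7 tags and fold 3.66 on chromosome 8 from 37796550 to 37797487. Another peak 1736 bp into the gene reached 35.4 tags, and the highest at the locus, at 36.9 tags and fold 6.27, lay 4671 bp beyond the other end of the gene, at an end of its neighbour BRF2. The 4 remaining inside peaks of ADGRA2 ran from 8.34 to 18.7 tags, the lowest of them close to the minimum of the whole list, 8.0 tags.

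RECK, the partner of ADGRA2, had 7 peaks, and 58.4% of genes of its length had fewer. Its end peak covered the annotated start on chromosome 9 from 36036631 to 36038020, at 37.1 tags over 1390 bp with a fold of 3.83. Inside the gene, 2 peaks were higher: 59.4 tags and fold 5.62 from 36102085 to 36103432, and 44.1 tags and fold 6.99 from 36091038 to 36092048. A flank peak 6559 bp upstream of the start had the highest fold of the 60 peaks, 8.12, at 31.5 tags. Peaks at the RECK locus covered 6211 bp, more than at 84.2% of genes of similar length. In ADGRA2 and RECK alike, the end peak was thus not the highest of the locus.

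The ligand genes stood apart from each other. All 3 WNT7A peaks were low: 10.7 tags inside the gene, 13.2 tags at the end and 12.5 tags in the flank. The end peak, 251 bp wide on chromosome 3 from 13880617 to 13880867, lay 546 bp upstream of the annotated start and did not reach the promoter printed above. Only 2.72% of genes of similar length had an end peak of lower pileup, against 17.0% by fold, and only 9.80% had less sequence under peaks. WNT7B had 8 peaks, with fewer at 79.2% of genes of its length. Its end peak, at 23.7 tags and fold 5.40 on chromosome 22 from 45919025 to 45919408, lay 958 bp outside the gene, just within the 1 kb limit. The highest peak of the locus, at 46.3 tags and fold 5.80 from 45978572 to 45979406, lay 1410 bp outside the other end and so counted as flank. Inside WNT7B, 2 peaks of 43.3 and 43.1 tags lay 5301 and 7350 bp from the nearer end of the gene. These 2 ligands were also the genes whose place at an end depended on the limit: within 500 bp of an end, 8 of the 10 members had a peak, compared with 69.2% of protein-coding genes, and the 2 lost were WNT7A and WNT7B.

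CTNNB1, which encodes beta-catenin, had 4 peaks over 40939 bp, the median for its length. Its end peak covered the annotated start on chromosome 3 from 41198847 to 41199859, at 46.8 tags over 1013 bp with a fold of 5.46, near the middle of genes of similar length, of which 51.9% had a lower one. The other peaks had 14.8 and 24.4 tags inside the gene and 12.6 tags in the flank. The 24.4-tag peak had a fold of 7.53 on the lowest local background, 2.37 tags.

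**Figure D2:**
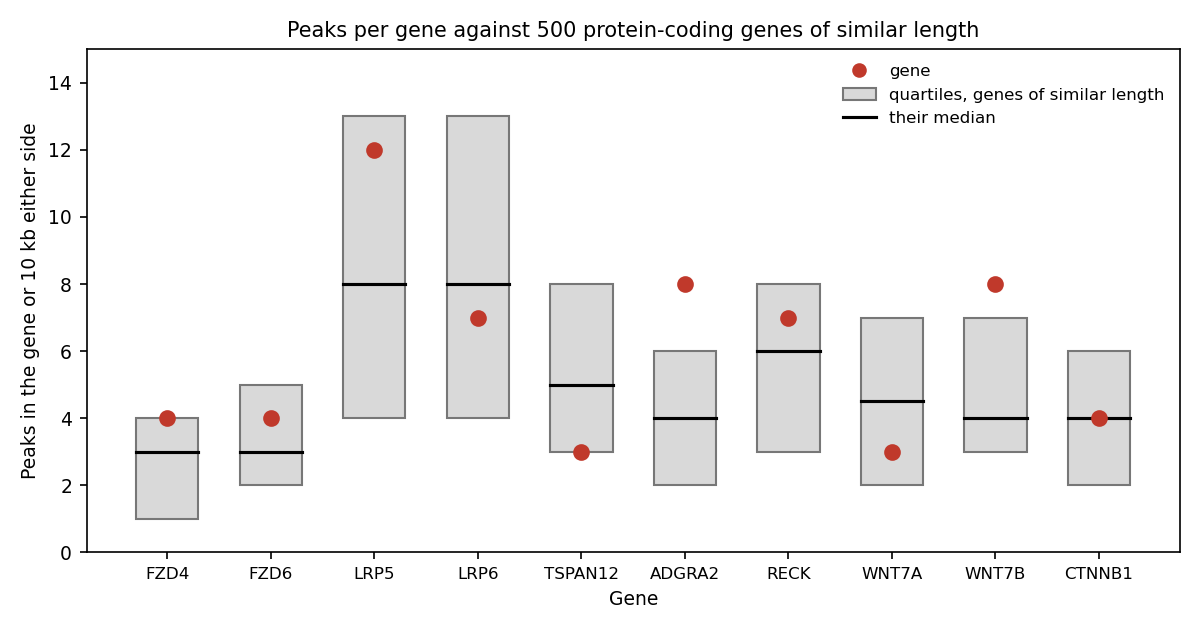
Number of peaks in each gene or the 10 kb either side (points) beside the 500 protein-coding genes nearest in length (box, quartiles; line, median). ADGRA2 and WNT7B, with 8 peaks each, lie above the upper quartile of 6 and 7, and the other 8 genes lie within the quartiles.

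Set against genes of similar length, 6 members had more peaks than the median gene, CTNNB1 had as many, and LRP6, TSPAN12 and WNT7A had fewer. Over all protein-coding genes, 42.9% had more peaks than the median gene of similar length. The count of 6 members fell to 4 at a −log10 q of 5 or more. It was 5 at a fold of at least 4 or with 1000 comparison genes, and 7 with flanks of 20 kb. The 42.9% was not recomputed under these settings. ADGRA2 and WNT7B lay above the upper quartile, and the remaining 8 lay within the quartiles. The counts of most members thus lay in the usual range for their length.

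The heights of the end peaks spread more widely. Their median pileup was 38.7 tags, compared with 45.7 (quartiles 30.5 and 60.2) at the 14595 protein-coding genes that had any, and their median fold was 4.93, compared with 5.02. FZD4 lay above the upper of these pileup quartiles, ADGRA2, WNT7B, TSPAN12 and WNT7A below the lower, and the remaining 5 between them. The place of WNT7B depended on the 1 kb limit for an end peak. By pileup, 3 of the 10 (FZD4, LRP6 and CTNNB1) were above the median end peak of genes of similar length, as were 50.0% of those 14595 genes. By fold there were 5: LRP5, LRP6, CTNNB1, TSPAN12 and WNT7B, without FZD4. LRP5 and LRP6 were well above, with a lower fold at 84.2% and 80.9% of genes of similar length. CTNNB1, TSPAN12 and WNT7B were only just above, at 51.9%, 50.8% and 53.6%. The share over all protein-coding genes was not computed by fold. In order of pileup the end peaks ran FZD4, LRP6, CTNNB1, FZD6, LRP5, RECK, ADGRA2, WNT7B, TSPAN12 and WNT7A. FZD6 and LRP5 were almost level, at 40.5 and 40.3 tags, and without a second library no step in this order could be tested.

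In 5 of the 10 genes (FZD4, LRP6, TSPAN12, CTNNB1 and WNT7A) the end peak was the highest of the locus. In the background this held for 54.8% of the 13074 protein-coding genes that had both an end peak and another. End peaks had a median width of 975.5 bp, compared with 459.5 bp inside the genes and 563 bp in the flanks. Their median local background was 7.29 tags, compared with 4.22 inside and 3.38 in the flanks. None of the 10 end peaks stood within 2% of the lowest background that the caller allows. Of the inside peaks 14 of 38 did, and of the flank peaks 3 of 12, compared with 35.7% of all peaks in the list. That share was not computed for the end peaks of all protein-coding genes. Because the fold divides by the local background, the order by fold differed from the order by pileup. LRP5, LRP6 and CTNNB1 had the highest folds of the end peaks. FZD4, first by pileup, was among the 4 lowest with WNT7A, RECK and ADGRA2.

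**Figure D3:**
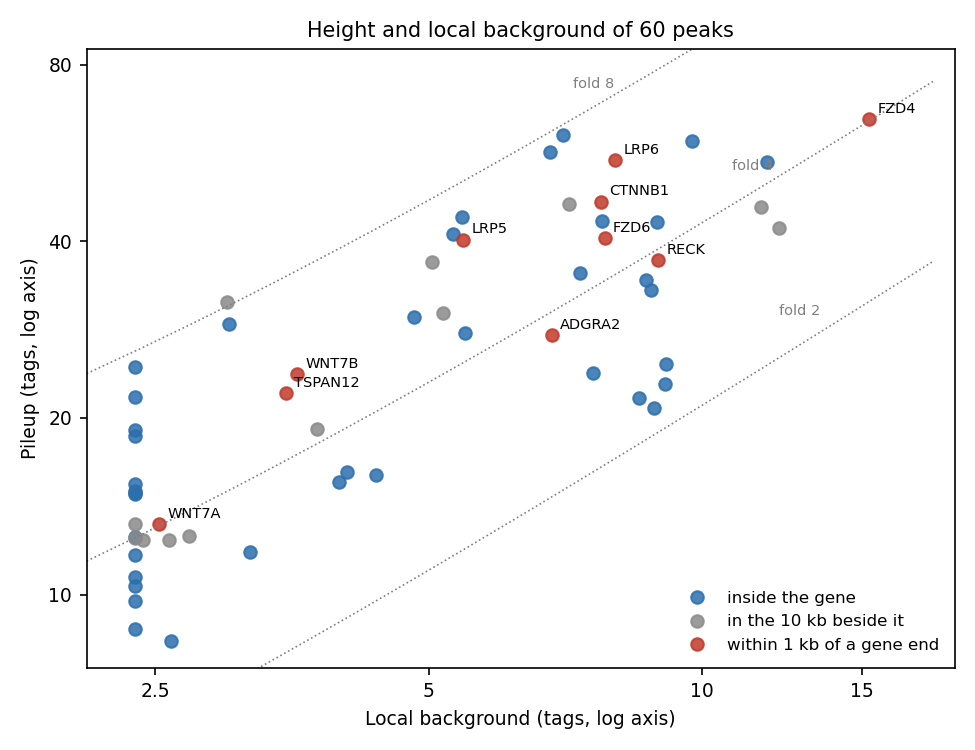
Pileup against local background for the 60 peaks of the 10 genes, both on log axes in tags, coloured by position, with dotted lines of equal fold. The FZD4 and WNT7A end peaks share a fold of 4.03 at pileups of 64.6 and 13.2 tags, and the column of points at the left, at 2.37 tags, is the lowest background the caller allows.

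Stricter peak criteria removed different members. When peaks needed a −log10 q of 5 or more, 9 of the 10 genes kept an end peak, compared with 66.7% of protein-coding genes, and WNT7A lost all 3 of its peaks. Its inside and flank peaks stood on the lowest local background, 2.37 tags, which a setting of the caller fixes. With a fold of at least 4, 8 of the 10 genes kept an end peak, compared with 56.0%, and the 2 lost were ADGRA2 and RECK, at folds of 3.66 and 3.83. These 2 had higher end pileups than WNT7A, WNT7B and TSPAN12, which stayed. Inside peaks were kept at 9 of the 10 members at a −log10 q of 5 or more, and at 8 at a fold of at least 4. The share of all protein-coding genes with an inside peak was not recomputed under these criteria.

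The rest of the pathway was described through a list of 63 other genes, of which 52 (82.5%) had an end peak, against the 72.8% of all protein-coding genes. That order turned under stricter criteria: 41 (65.1%, against 66.7%) had one at a −log10 q of 5 or more, and 31 (49.2%, against 56.0%) at a fold of at least 4. The counts by role stand against the same 72.8%. Of the 8 other frizzled genes 7 had one. FZD1 had the highest, at 72.0 tags, and FZD10 had no peak in the gene or its flanks. Within the whole family of 10, FZD4 came next after FZD1 and FZD5, and FZD8 lay between FZD4 and FZD6. Of the 22 other ligand genes, a list that includes Norrin (NDP) and the R-spondins, which strengthen Wnt signals, 15 (68.2%) had an end peak, with a median of 19.1 tags. The highest was at WNT9A, at 53.8 tags, and the longest gene without one was WNT9B. Among the 14 of 19 WNT genes with an end peak, WNT7B held rank 8 and WNT7A rank 11 by pileup. These ranks hold for the 1 kb limit, since neither gene had a peak within 500 bp of an end. With gene ends of 2500 bp, 53.5% of genes of similar length had a lower end peak than WNT7B, and 3.24% than WNT7A. NDP had none at its ends and 3 peaks inside.

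All 8 other receptors and regulators of receptor turnover had an end peak, with a median of 39.5 tags and the highest, 62.2 tags, at LGR4, a receptor for R-spondins. All 9 genes of the destruction complex, which breaks down beta-catenin, and of the transducers had one, with a median of 75.0 tags, and the highest was 123 tags at GSK3A, a kinase of that complex. Of the 14 genes for secreted inhibitors and their receptors 11 (78.6%) had one, with a median of 20.9 tags. The highest was 79.8 tags at DKK1, which blocks LRP5 and LRP6, and DKK2 was the longest gene without one. Both genes of ligand secretion had one, with 45.0 tags at PORCN, the enzyme that attaches a lipid to Wnt proteins. By median end pileup the members, at 38.7 tags, were thus close to the other frizzled genes, at 38.1, while WNT7A lay below and WNT7B above the median of the other ligands.

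**Figure D4:**
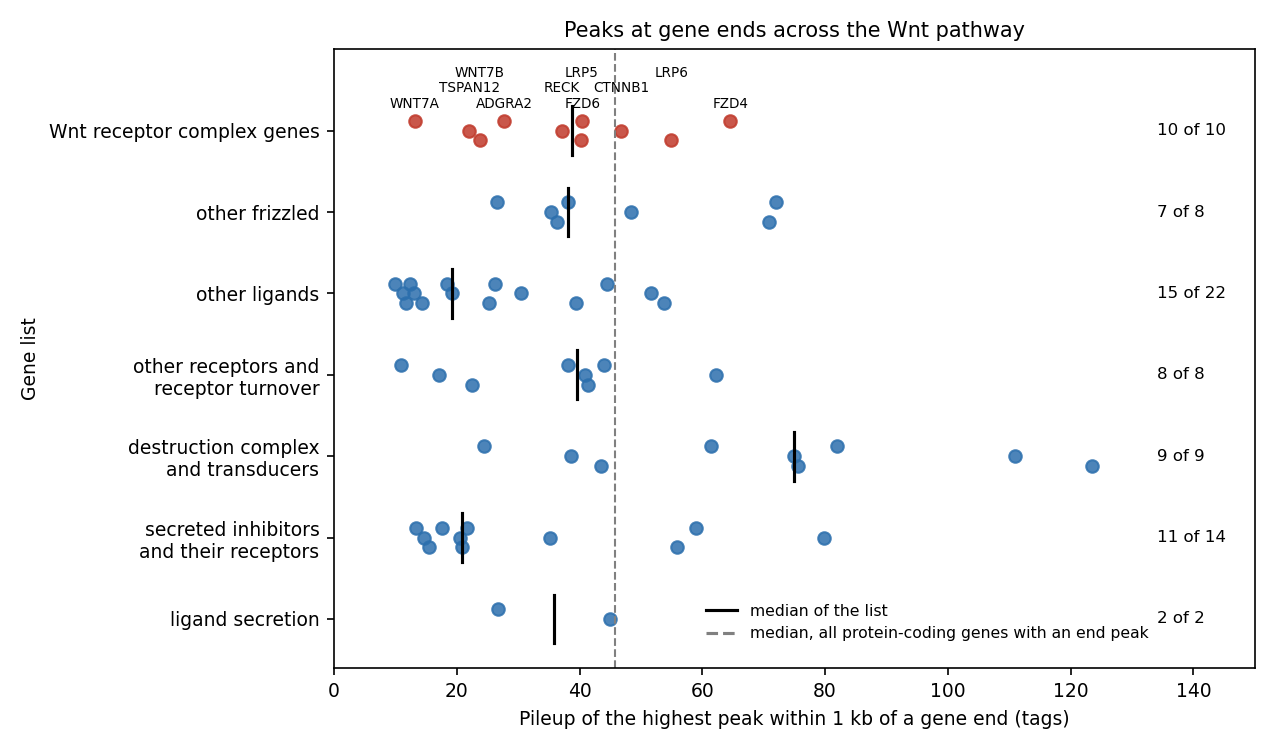
Pileup, in tags, of the highest end peak of each gene by list, with the number of genes that had one at the right. The 10 genes run from 13.2 tags at WNT7A to 64.6 at FZD4, the destruction complex and transducers have the highest median, 75.0 tags, and the other ligands the lowest, 19.1.

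No region below 8.0 tags was called at this depth. Because peaks were called against a local background, regions above 8.0 tags could also be missed where that background was high. A missing peak therefore does not show closed chromatin. The gene table holds gene extents only, so inside peaks were not divided into exons and introns, and for FZD6, LRP6, ADGRA2 and WNT7B the start was not told apart from the other end.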

How the data were processed

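The submitters' processing notes name Bowtie2, SAMtools 1.13, Picard and MACS2, and the builds GRCh38 and mm10. Per the file headers, the authors called broad peaks with MACS 2.2.7.1 without a control, in single-end mode, shifting tags by -100 bp, extending them to 200 bp and keeping 1 tag per position (22188172 of 31532245), at q of 0.05 and 0.1. They set a mouse genome size of 1870000000 bp, which fixes the lowest local background at 2.37 tags. A smaller size raises this floor and lowers the fold and −log10 q of peaks on it. Of all peaks in the list 35.7% stood there, and 17 of the 60 member peaks. The deposited list gives each peak's width in bp, pileup signal, fold ratio and −log10 of its p-value and of its q-value. Local background was estimated from these region averages as (pileup + 1)/fold − 1, whose minimum was also 2.37.

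Gene extents came from a RefSeq table of GRCh38.p14. Annotated starts lay in a peak for 65.4% of genes, and for 3.02% to 3.98% with all peaks moved by 5 to 50 kb, so the list was read as GRCh38. Overlap was at least 1 bp. Comparison sets were the 500 other protein-coding genes nearest in log length. Counting was tested on simulated data. Python 3.11.15, pandas 2.3.3, NumPy 2.4.6 and SciPy 1.17.1 were used. Members and gene lists were chosen with earlier results of these data known. Named were all members, genes sharing their peaks, and in each pathway list the gene of highest end pileup and the longest without an end peak. NDP, FZD5 and FZD8 were named after their values were seen. The RNA tables were not used.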

Additional observations from a re-analysis of the deposited data

How the results depend on the processing

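Of 39 alternative values of the summary counts, 34 stayed within 1.5 times and 5 moved. The 60 peaks at the 10 loci became 39 when a −log10 q of 5 or more was required and 35 at a fold of at least 4, and the 52 pathway genes with an end peak became 31 at that fold (49.2%, against 56.0% of protein-coding genes). Ranked by fold, 5 members in place of 3 were above the median end peak of genes of similar length, and FZD4 was no longer among them. In an alternative chosen after seeing the data, only peaks with no end of another gene within 1 kb were kept: 7 of the 10 members and 43 of the 63 pathway genes then had an end peak, and the 14595 protein-coding genes became 8774 (43.8%), because peaks shared with neighbours were left out. Of 158 values for single genes, 64 left the 95% Wilson interval of the reported share or 1.5 times the reported count. With flanks of 20 kb, 58.0% of genes of similar length had fewer peaks than WNT7A, and with gene ends of 2500 bp, 53.5% had a lower end peak than WNT7B. No paired analysis was possible because accessibility was measured in 1 library and no test was made.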
